A study of Homo sapiens and Mus musculus with 36 samples.

Results

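The genes described are the nuclear-encoded subunits of mitochondrial complexes II to V, chosen by symbol from 2 Affymetrix 3′ expression arrays. The rule took SDHA to SDHD, CYC1 and every symbol starting with UQCR, COX4I, COX5, COX6, COX7, COX8, ATP5F1, ATP5M or ATP5P on the human array, and the same symbols in mouse case, with the older names that start with Atp5, on the mouse array. It found 46 of the 19775 human genes tested (3 of complex II, 7 of complex III, 18 of complex IV and 18 of complex V) and 47 of the 18193 mouse genes tested (4, 9, 17 and 17). The rule itself uses no measured value, but it was chosen with earlier results of these data known. The human set holds the pseudogenes ATP5MC2P1 and COX6A1P1, and both sets hold COX7A2L, a factor of respiratory supercomplexes that is named after complex IV. Human SDHB, UQCRFS1 and UQCRH were not analysed here.

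The study tested an adverse outcome pathway of cholestatic liver injury, in ligated mouse liver and in human cells given drugs with bile acids. Sv129 mice had their common bile duct ligated (CBDL, 6 livers) or a sham operation that left the duct open (6 livers), and livers were taken 6 weeks later; the age of the mice is not given in the sources used here. HepaRG is a human hepatoma line whose differentiated cultures hold cells like hepatocytes and cells like bile duct cells. Cryopreserved differentiated cells were kept for 72 h, from day 7 after seeding, with vehicle (control), a 50-fold concentrated bile acid mixture (the mix), atazanavir at 60 µM (an HIV protease inhibitor), cyclosporin A at 20 µM (an immunosuppressant), nefazodone at 30 µM (an antidepressant), or each drug with the mix. Each of these 8 groups held 3 arrays. HepaRG is 1 cell line, every drug was given at 1 dose and 1 time, and the series text speaks of 3 batches of cells without tying an array to a batch. P-values here measure the spread between these samples, part of which may be technical.

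Complex II (succinate dehydrogenase) takes electrons from succinate in the citric acid cycle and passes them to ubiquinone. Complex III moves them on to cytochrome c, and complex IV (cytochrome c oxidase) gives them to oxygen; complexes III and IV pump protons as they do so. Complex V (ATP synthase) lets the protons flow back through its membrane ring and makes ATP. Apart from complex II, each complex also has subunits encoded in mitochondrial DNA, which these symbols do not cover. Bile acids and several drugs that impair bile flow are known to disturb liver mitochondria, and nefazodone and cyclosporin A are known to act on mitochondria directly.

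Nuclear genes of these complexes are textbook targets of NRF1, of ETS factors such as GABPA, of YY1 and of ESRRA. The promoters of 4 members described below are therefore shown, with matches to the letters of these motifs in capitals. The 250 bases before the start of the gene are given 5′ to 3′ on the gene's strand, from RefSeq on GRCh38.p14. SDHA (catalytic subunit of complex II, chr5:218070-218319, plus strand), COX5B (a complex IV subunit, chr2:97645812-97646061, plus strand) and ATP5PO (the stalk subunit OSCP of complex V, chr21:33915805-33916054, minus strand) fell when the mix was added to 2 or 3 of the drugs. COX7A2L (chr2:42361218-42361467, minus strand) was the member that rose most with a drug.
SDHA: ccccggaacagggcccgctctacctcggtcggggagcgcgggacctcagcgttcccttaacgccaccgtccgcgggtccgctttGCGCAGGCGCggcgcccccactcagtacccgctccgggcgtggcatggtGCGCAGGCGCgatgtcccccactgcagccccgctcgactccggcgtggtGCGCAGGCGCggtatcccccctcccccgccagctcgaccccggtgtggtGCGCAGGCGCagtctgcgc
COX5B: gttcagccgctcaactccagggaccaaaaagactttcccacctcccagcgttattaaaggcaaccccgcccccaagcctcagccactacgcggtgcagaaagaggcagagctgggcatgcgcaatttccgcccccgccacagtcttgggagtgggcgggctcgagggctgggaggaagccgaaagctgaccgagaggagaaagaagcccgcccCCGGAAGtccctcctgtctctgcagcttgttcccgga
ATP5PO: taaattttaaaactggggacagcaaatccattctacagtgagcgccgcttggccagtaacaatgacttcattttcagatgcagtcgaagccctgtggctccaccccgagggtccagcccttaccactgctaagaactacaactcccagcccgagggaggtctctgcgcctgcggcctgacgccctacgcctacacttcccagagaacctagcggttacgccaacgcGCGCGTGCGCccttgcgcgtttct
COX7A2L: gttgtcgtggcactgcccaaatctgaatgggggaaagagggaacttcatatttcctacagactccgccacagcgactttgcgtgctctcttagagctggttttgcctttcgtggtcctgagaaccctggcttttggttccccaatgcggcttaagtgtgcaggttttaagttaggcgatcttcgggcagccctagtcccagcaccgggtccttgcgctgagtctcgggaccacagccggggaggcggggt
The SDHA window held the NRF1 letters 4 times. COX5B held 1 match to the ETS letters, ATP5PO 1 match to the NRF1 letters (on the other strand), and COX7A2L none.

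Promoter sequences were given for 34 of the 44 human members that are not pseudogenes. ATP5F1B and ATP5MC3 of complex V, which fell most when the mix was added to cyclosporin A or nefazodone, were not among the 34. On either strand, the NRF1 letters (GCGCA, any base, GCGC) were found in 9 of these 34 promoters (26.5%) and in 5.53% of all 27305 promoters in the table. The ETS letters CCGGAAG were found in 10 (29.4%) against 8.82%, the YY1 letters AAGATGGC in 1 (2.94%) against 1.37%, and the ESRRA letters TCAAGGTCA in none of the 34 against 0.319%. SDHD, a membrane anchor of complex II, and UQCR11, a small subunit of complex III, held both NRF1 and ETS letters. These are matches of letters within a fixed window, and no binding was measured.

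Levels are the deposited log2 values, and where a gene had several probe sets, the one with the highest mean of its species stands for it. Genes with a mean at or below 4.27 (human) or 5.40 (mouse), the lower end of all genes, are called dim. Of the members, 37 in human and 40 in mouse had a mean over 8, and these are called bright members below. Arrays of a group correlated at 0.9805 to 0.9967 over all genes in mouse and at 0.9908 to 0.9976 in HepaRG cells. Hepatocyte markers (9 of 10 measured, ALB and APOA1 among them) had a summed level of 17.34 to 17.40 in all mouse livers and of 13.80 to 16.15 in the HepaRG arrays. Among the HepaRG arrays, the third nefazodone array lay above its replicates for most members described below. A gene was called with a limma adjusted p under 0.05 over all genes of the species.

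With the mix alone, no member passed the test. Of the 46 members 0 were called higher and 0 lower than in control by limma, where 6.78% of all genes were called higher and 3.37% lower (10.6% and 5.72% among genes with a mean over 8). At an unadjusted p under 0.05, 1 member was higher and 1 lower, the smallest adjusted p was 0.151, and after quantile normalization 1 member was called. The median change was -0.04 over the members and 0.01 over all genes. The largest were those of COX6A2 (-0.25, SE 0.12), the muscle and heart isoform of a complex IV subunit, ATP5ME (-0.20, SE 0.10), a small membrane subunit of complex V, and the pseudogene ATP5MC2P1 (-0.17, SE 0.18). ATP5F1B, the catalytic beta subunit of complex V, was at 11.82, 11.78 and 11.72 in control cells and at 11.84, 11.90 and 11.75 with the mix, so the groups overlapped.

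Atazanavir alone was followed by higher levels of 12 members and lower levels of 4, while 22.2% of all genes were called higher and 13.2% lower (42.9% and 17.4% among genes with a mean over 8). The share of members called higher was thus near that of all genes. ATP5MC2 and ATP5MC1, 2 of the 3 genes for the identical c-ring protein of complex V, rose by 0.49 (SE 0.11, adjusted p = 0.00104) and 0.48 (SE 0.12, adjusted p = 0.00307). CYC1, cytochrome c1 of complex III, rose from 10.39, 10.44 and 10.40 in control to 10.84, 10.95 and 10.78, a change of 0.45 (SE 0.09, adjusted p = 0.000467). COX5A, a nuclear subunit of complex IV, rose by 0.36, and the small complex IV subunit COX7B by 0.29. All 3 atazanavir arrays lay above all 3 control arrays for each of these genes. On the other side, COX6A2 fell by 1.08 (SE 0.12, adjusted p = 3.84e-07), from 5.63, 5.78 and 5.45 to 4.71, 4.50 and 4.40. UQCRQ, a small complex III subunit, fell by 0.45, SDHC, a membrane anchor of complex II, by 0.34 and SDHA by 0.29. The counts depend on single arrays: without the third control array 6 members were higher and 4 lower, and without the first atazanavir array 4 and 4. The call for SDHA was lost without the first control array (adjusted p = 0.0735) or the third atazanavir array (0.0573). With the mean over a gene's probe sets the calls for ATP5MC2 (0.15, adjusted p = 0.316) and COX7B (0.08, adjusted p = 0.725) were lost, and that for COX7B also without the first atazanavir array (0.0555).

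Cyclosporin A alone was followed by higher levels of 2 members and lower levels of 12, against 22.2% and 18.5% of all genes. The 2 that rose were COX7A2L, by 0.60 (SE 0.07, adjusted p = 9.11e-07), and COX8C, a testis isoform whose level of 2.07 in control lies in the dim range. SDHA fell by 0.43 (SE 0.09, adjusted p = 0.000671), ATP5PF, the coupling factor 6 subunit of complex V, by 0.43, SDHD by 0.39, UQCRQ by 0.37, the c-ring gene ATP5MC3 by 0.36 and ATP5ME by 0.33. For all 6 the cyclosporin A arrays lay below the control arrays. With only the control and cyclosporin A arrays in the fit, 1 member was higher and 5 lower, and after centring each array on its median gene 5 and 11 (4 and 10 after quantile normalization). The call for ATP5MC3 was lost after quantile normalization (adjusted p = 0.0834), those for UQCRQ, ATP5PF and ATP5ME without the second cyclosporin A array, and that for UQCRQ also without the last control array. The call for COX8C was lost without that control array (0.0603) or without the second or the third cyclosporin A array. SDHD changed by -0.11 with the mean over its probe sets (adjusted p = 0.251), and its other probe set lies in the dim range, at 2.96, 2.93 and 2.59 in control.

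Nefazodone alone gave 11 members higher and 6 lower, against 25% and 20.6% of all genes, so neither share lay above that of all genes. COX7A2L rose by 0.91 (SE 0.07, adjusted p = 8.37e-10), CYC1 by 0.68, COX5A by 0.59, COX5B by 0.55, ATP5PO by 0.43 and ATP5F1B by 0.42. UQCRC1 and UQCRC2, the core subunits of complex III, rose by 0.41 and 0.39. SDHC fell by 0.65 (SE 0.08, adjusted p = 5.07e-07), from 10.13, 10.11 and 10.18 to 9.36, 9.43 and 9.69, COX6A2 by 0.49, UQCRQ by 0.46, SDHA by 0.31, ATP5MJ, a small complex V subunit, by 0.23 and UQCR10, another small complex III subunit, by 0.18. The split is not settled: without the third nefazodone array 10 members were higher and 12 lower, and with arrays centred on the median gene 17 were higher and 3 lower. Same-numbered arrays of these groups deviated together, and in a fit blocked on the replicate number the call for UQCR10, whose groups overlapped, was lost (adjusted p = 0.0558). The fall of SDHA was no longer called after centring (adjusted p = 0.0631) or without the first nefazodone array (0.0623). That of ATP5MJ was lost after centring (0.188) and without the third control array or the first or second nefazodone array, and that of UQCR10 in most of the alternatives. A weaker ATP5MJ probe set went from 9.40, 9.40 and 9.39 in control to 8.61, 8.62 and 8.90 with nefazodone, without overlap. COX5A changed by 0.22 with the mean over its probe sets and was then not called (adjusted p = 0.0744).

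**Figure D1:**
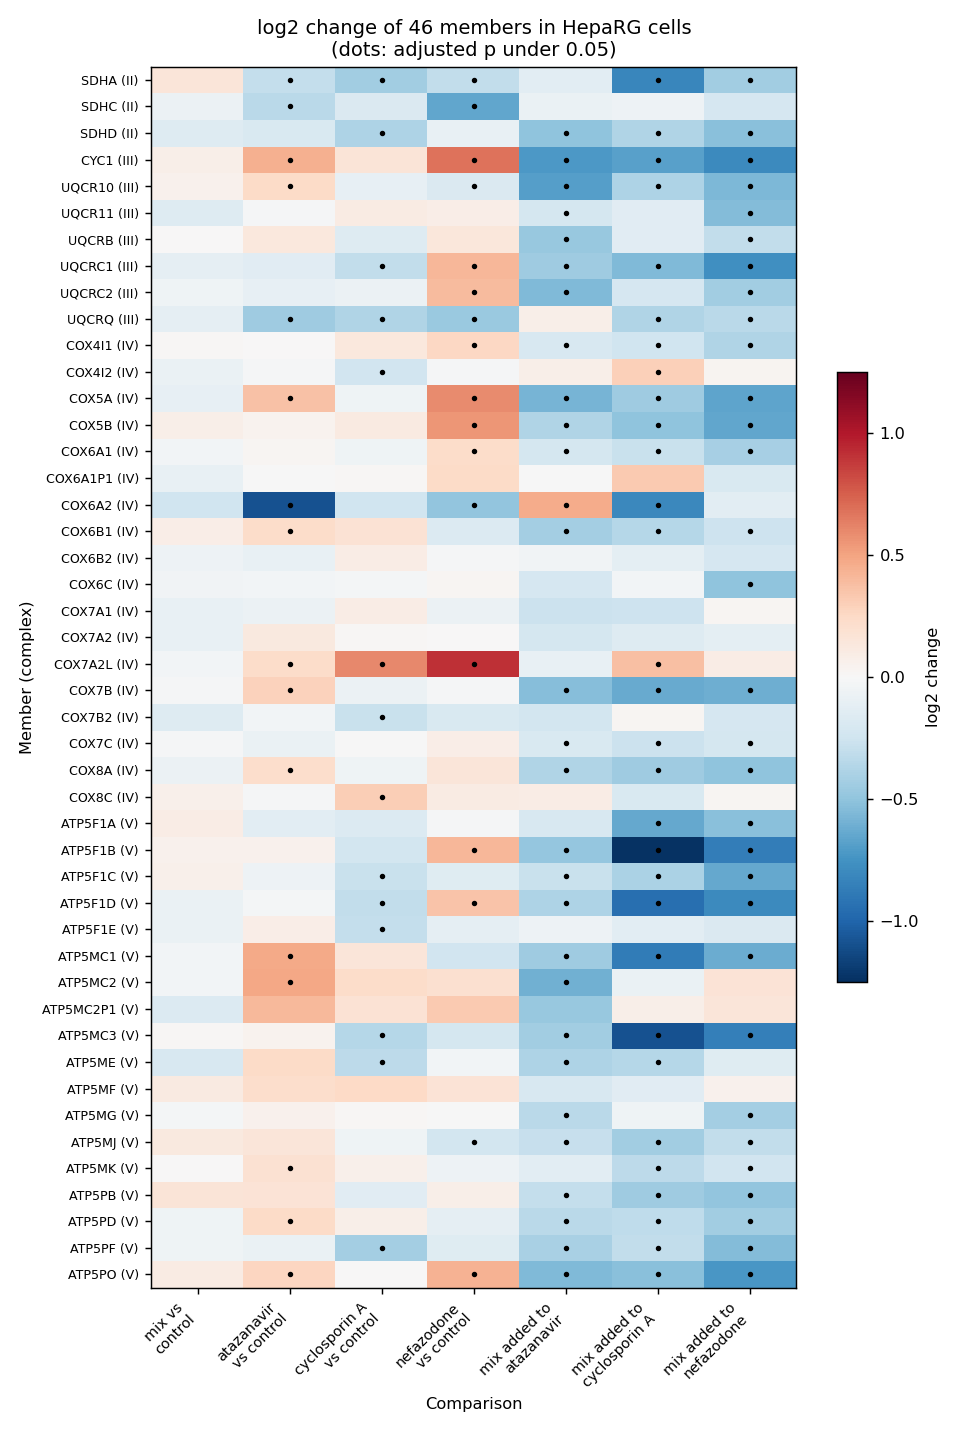
Log2 change of the 46 human members (rows, with their complex) in 7 comparisons of HepaRG groups (columns), blue for lower and red for higher, with a dot for an adjusted p under 0.05. The first column has no dot, columns 2 to 4 mix both colours, and the 3 columns on the right, the mix added to each drug, are mostly blue with 28, 28 and 31 dots for lower members.

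Adding the mix to a drug lowered most members. With atazanavir 28 members fell and 1 rose when the mix was added, where 10.3% of all genes fell and 8.95% rose. With cyclosporin A 28 fell and 2 rose, against 18.4% of all genes in each direction. With nefazodone 31 fell and none rose (0 also at an unadjusted p under 0.05), against 7.92% and 7.55%. Among genes with a mean over 8 the shares that fell were 18.9%, 27.5% and 15.5%. These 3 comparisons share no array. 22 members fell in all 3, as did 1.32% of all genes (3.23% of those with a mean over 8), and 34 fell in at least 1, as did 28.1% of all genes (44.2%). The falls were modest for single genes: the median change of the 37 bright members was -0.37 with atazanavir, -0.38 with cyclosporin A and -0.49 with nefazodone, and that of all genes with a mean over 8 was -0.03, 0.06 and 0.02.

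The same held array by array. The median deviation of the bright members from the control mean was -0.27, -0.29 and -0.27 in the 3 arrays with atazanavir and the mix, -0.48, -0.48 and -0.47 with cyclosporin A and the mix, and -0.45, -0.42 and -0.37 with nefazodone and the mix. It lay between -0.14 and 0.18 in the arrays with a drug alone and between -0.05 and 0.02 with the mix alone. All 9 arrays with a drug and the mix thus lay below the other 15. The third nefazodone array had the highest median, 0.18; without it, 25 members fell and none rose when the mix was added to nefazodone. Centring each array on its median gene left 32, 20 and 28 members lower in the 3 comparisons, and 1, 3 and 0 higher; this centring moved the median change of all genes from -0.01 to 0.15 for the mix added to cyclosporin A.

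**Figure D2:**
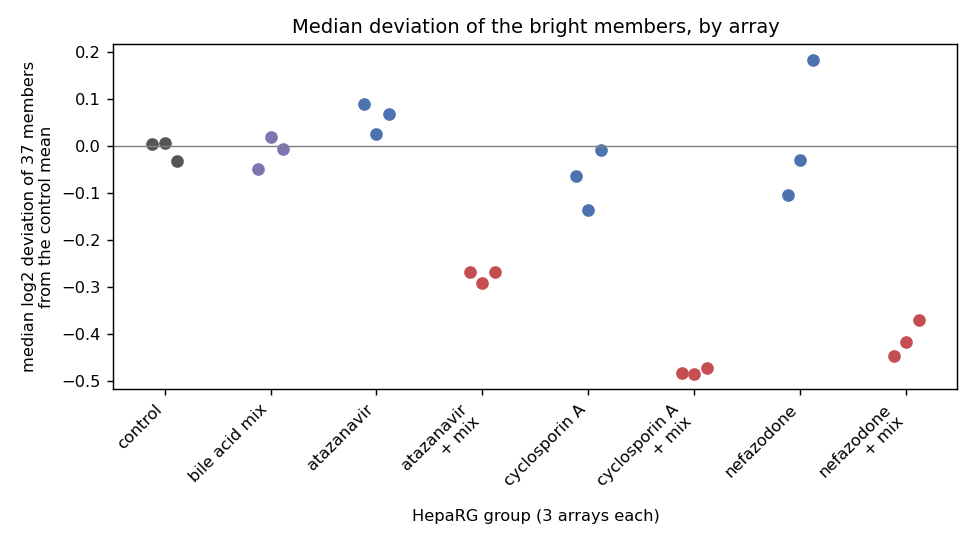
Median log2 deviation of the 37 bright human members from the control mean (vertical axis) in each of the 24 HepaRG arrays (points), by group (horizontal axis). The 9 arrays with a drug and the mix lie between -0.27 and -0.48, below every array of the other groups.

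**Figure D3:**
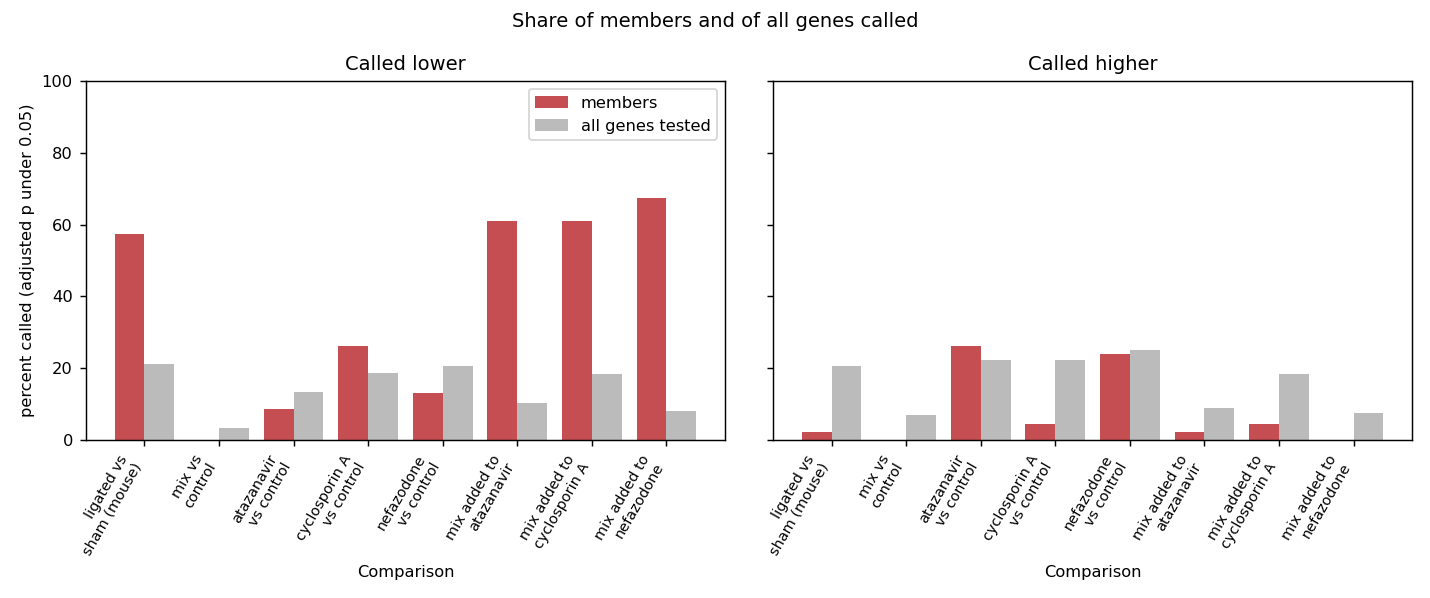
Share of members (red bars) and of all genes tested (grey bars) called lower (left) or higher (right), in percent, for ligated liver and 7 HepaRG comparisons. In the 3 comparisons that add the mix to a drug, 60.9%, 60.9% and 67.4% of members were lower.

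Complex II was measured by its flavoprotein SDHA and its membrane anchors SDHC and SDHD. SDHA was at 9.74, 9.59 and 9.68 in control and at 9.77, 9.84 and 9.83 with the mix. With cyclosporin A it was at 9.02, 9.23 and 9.45, and with cyclosporin A and the mix at 8.46, 8.41 and 8.39. The mix thus lowered SDHA by a further 0.81 (1.76-fold, SE 0.09, adjusted p = 5.42e-07) beside cyclosporin A and by 0.43 beside nefazodone, with no overlap of groups. Beside atazanavir its change was -0.13 and not called. SDHD fell when the mix was added to each drug, by 0.50, 0.38 and 0.52 (atazanavir, cyclosporin A and nefazodone, here and below). SDHC, by the probe set used, was not called in any of these comparisons (-0.08, -0.06 and -0.21), and it was lower with atazanavir or nefazodone alone than in control. A weaker SDHC probe set, at 6.23, 6.13 and 6.25 in control, was lower without overlap on adding the mix to each drug. With cyclosporin A its arrays went from 5.49, 4.94 and 5.49 to 4.14, 4.74 and 4.38. The other SDHC probe sets overlapped there.

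In complex III, 6, 4 and 7 of the 7 members fell. CYC1, which carries the haem that hands electrons to cytochrome c, was at 10.14, 10.16 and 10.11 with atazanavir and the mix, at 9.93, 9.92 and 9.84 with cyclosporin A and the mix, and at 10.26, 10.25 and 10.36 with nefazodone and the mix. Against each drug alone these are falls of 0.72, 0.67 and 0.80 (SE 0.09 each, adjusted p at most 9.41e-06), and no groups overlapped. UQCR10 fell by 0.69, 0.38 and 0.56, and UQCRC1 by 0.44, 0.55 and 0.77. UQCRC2 fell by 0.55 with atazanavir and 0.44 with nefazodone, while its change of -0.21 with cyclosporin A was not called (adjusted p = 0.104; -0.32 and 0.0139 without the second cyclosporin A array). In a fit of only those groups its fall with nefazodone was not called (0.0536), and the difference between drugs was not tested. UQCRB, a small subunit near the ubiquinone site, and UQCR11 each fell with atazanavir and nefazodone. UQCRQ fell by 0.38 with cyclosporin A and 0.34 with nefazodone; its change with atazanavir, 0.07, was not called, and this difference between drugs was not tested.

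In complex IV, 8, 9 and 9 of the 18 members fell. COX5A, at 11.99, 12.04 and 12.08 with atazanavir and at 11.49, 11.42 and 11.47 with the mix added, fell by 0.58, and by 0.44 and 0.66 beside the other drugs. COX5B fell by 0.38, 0.50 and 0.65; with nefazodone it went from 11.81, 11.81 and 12.21 to 11.24, 11.30 and 11.34, close to its control level of 11.39 ± 0.08 (SD, n = 3). COX7B fell by 0.53, 0.63 and 0.61, and COX8A by 0.37, 0.45 and 0.51. COX4I1, COX6A1, COX6B1 and COX7C fell in all 3 comparisons by between 0.19 and 0.43. COX7A2, the general isoform of a subunit whose muscle isoform is COX7A1, was not called in any (-0.21, -0.16 and -0.13), and COX6C fell by 0.50 beside nefazodone, with -0.21 and -0.03 beside the other drugs not called.

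In complex V, 13 of the 18 members fell in each of the 3 comparisons. ATP5F1B was at 11.41, 11.46 and 11.76 with cyclosporin A and at 10.33, 10.30 and 10.30 with the mix added. This fall of 1.23 (2.35-fold, SE 0.09, adjusted p = 1.79e-09) was the largest of any member in these comparisons; the falls beside atazanavir and nefazodone were 0.48 and 0.86. ATP5MC3 fell by 1.09 beside cyclosporin A, from 12.13, 12.04 and 12.34 to 11.09, 11.09 and 11.06, by 0.86 beside nefazodone and by 0.44 beside atazanavir. ATP5F1D, the delta subunit of the central stalk, fell by 0.94, 0.80 and 0.38 in the same order, and ATP5MC1 by 0.88, 0.62 and 0.44. ATP5PO fell by 0.55, 0.52 and 0.72 (atazanavir first; -0.23 there with the mean over its probe sets, adjusted p = 0.0582), and ATP5PB, ATP5PD and ATP5PF, of the peripheral stalk, fell in all 3 by between 0.30 and 0.54. ATP5F1A, the alpha subunit that alternates with beta in the catalytic head, fell by 0.64 beside cyclosporin A and 0.53 beside nefazodone, with -0.20 beside atazanavir not called.

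**Figure D4:**
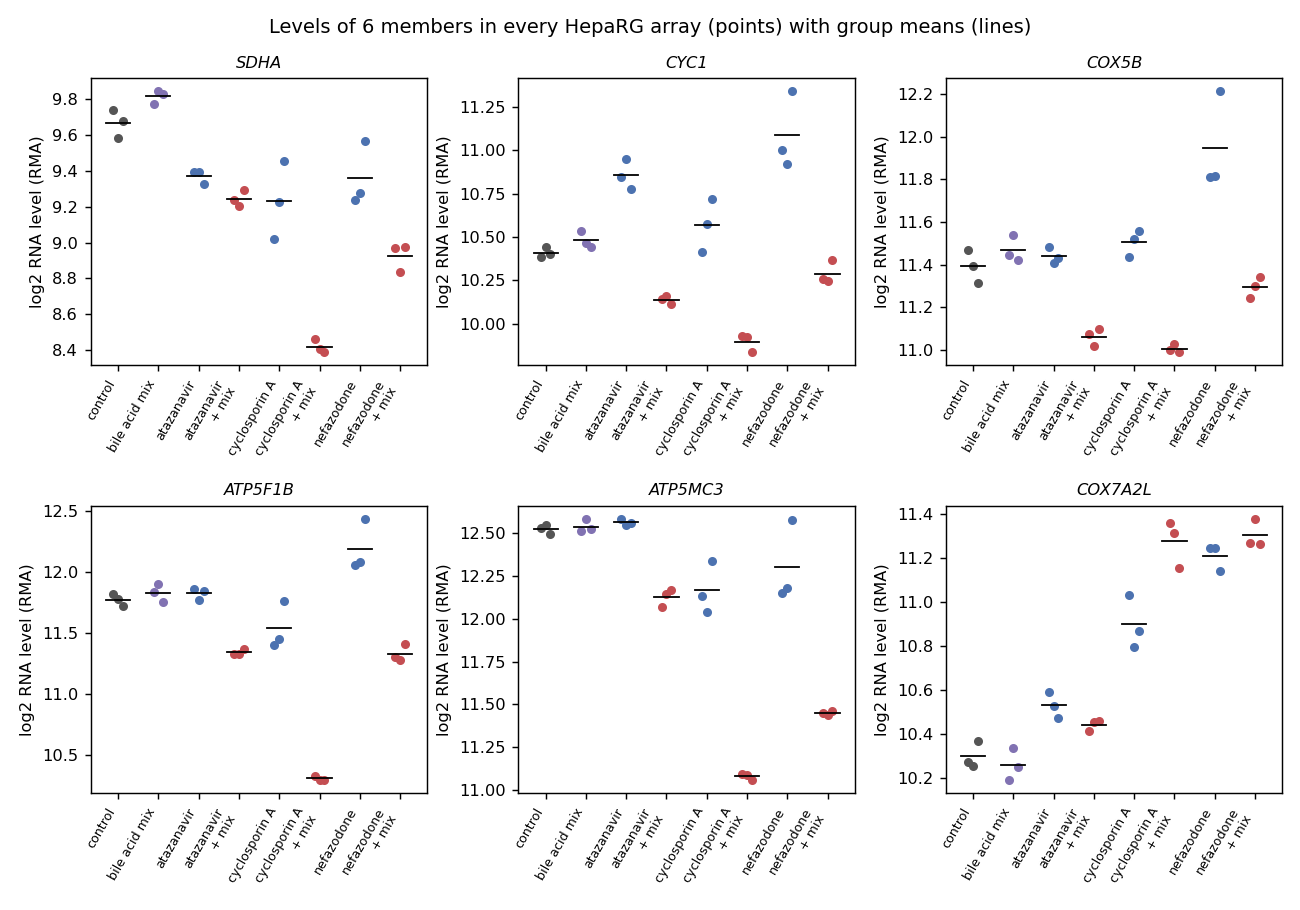
Log2 RNA level (vertical axes) of 6 members in the 24 HepaRG arrays (points) by group, with the group means as lines. For SDHA, CYC1, ATP5F1B and ATP5MC3 the arrays with cyclosporin A and the mix are the lowest of all, and for COX7A2L the nefazodone arrays and those with nefazodone or cyclosporin A and the mix are the highest.

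The 3 c-ring genes encode the same mature protein with different import sequences and did not move together. ATP5MC1 and ATP5MC2 rose with atazanavir and fell when the mix was added; ATP5MC3 did not rise with atazanavir (0.04). Beside cyclosporin A and the mix, ATP5MC1 and ATP5MC3 fell while ATP5MC2 changed by -0.08, and beside nefazodone and the mix ATP5MC2 changed by 0.17; neither was called. Another probe set of ATP5MC2, at 3.73 to 4.10 in the dim range, did not follow the first, and with the mean over both ATP5MC2 was not called for the mix added to atazanavir either (-0.28, adjusted p = 0.0713). The other probe sets of ATP5MC3 changed by -1.19 and -1.73 on adding the mix to cyclosporin A, and the other one of ATP5F1D by -0.60.

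By the probe set used, 12 members were not called lower in any of the 3 comparisons. Apart from SDHC, COX7A2 and ATP5F1E, the epsilon subunit of complex V (-0.07, -0.13 and -0.18), they were the 2 pseudogenes, COX7A2L, and members that are low in these cells: COX4I2, COX6B2, COX7A1, COX7B2, COX8C and ATP5MF. The probe set used for ATP5MF, at 3.89 in control, is dim, and a further ATP5MF probe set carries a second symbol and was not used.

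COX7A2L was the one bright member that rose when the mix was added to a drug. Its arrays were at 10.27, 10.25 and 10.37 in control, at 10.59, 10.52 and 10.47 with atazanavir, at 11.03, 10.79 and 10.87 with cyclosporin A, and at 11.24, 11.24 and 11.14 with nefazodone. Adding the mix to cyclosporin A raised it to 11.36, 11.31 and 11.15, a change of 0.38 (SE 0.07, adjusted p = 0.000333). With atazanavir and nefazodone the changes on adding the mix, -0.09 and 0.09, were not called. Relative to the mix alone it was 1.02 higher with cyclosporin A and the mix and 1.04 higher with nefazodone and the mix, 2.02-fold and 2.06-fold, and all of these arrays lay above those of the mix.

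Pairs of tissue isoforms of complex IV behaved as follows. COX4I1 fell on adding the mix to each drug (by 0.20, 0.25 and 0.38), while COX4I2, the lung isoform that is induced by low oxygen, fell with cyclosporin A alone (by 0.24, adjusted p = 0.0478) and rose when the mix was added to it (by 0.30, SE 0.09, adjusted p = 0.0142), from a mean of 4.71 ± 0.02 to 5.01 ± 0.01 (SD, n = 3). COX6A1 fell in all 3 by 0.22, 0.28 and 0.41. Its muscle counterpart COX6A2 rose by 0.46 beside atazanavir (adjusted p = 0.0102; 0.0543 without the third atazanavir array), to 4.96, 4.99 and 5.04, still below every control array, and fell by 0.81 beside cyclosporin A. COX6B1, COX7B and COX8A fell in all 3, and their germline counterparts COX6B2, COX7B2 and COX8C, at 3.95, 3.25 and 2.07 in control, were not called in any.

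Whether the mix acted differently with a drug than without was tested by the interaction, the change on adding the mix to the drug minus the change on adding it to control. It was negative and called for 15 members with atazanavir (7.29% of all genes), 23 with cyclosporin A (15%) and 24 with nefazodone (7.31%), and positive for 1, 2 and 0 (5.07%, 10.9% and 4.57% of all genes; for nefazodone 0 also at an unadjusted p under 0.05). The 3 tests share the mix and control arrays, so their values are set side by side without a count of overlap. For ATP5F1B the interaction was -0.54 with atazanavir (SE 0.13, adjusted p = 0.00945), -1.29 with cyclosporin A (adjusted p = 3.78e-07) and -0.92 with nefazodone (adjusted p = 9.8e-05). For CYC1 it was -0.79, -0.75 and -0.87, and for ATP5MC3 -0.45, -1.11 and -0.87. SDHA had -0.96 with cyclosporin A and -0.58 with nefazodone, and -0.28 with atazanavir was not called (adjusted p = 0.206). COX6A2 with atazanavir (0.72) and COX7A2L (0.42) and COX4I2 (0.39) with cyclosporin A were the members with a positive one. The call for COX4I2 was lost in 10 alternatives, among them only the groups compared (adjusted p = 0.0724) and without the third mix array (0.109). With the mean over probe sets the atazanavir interactions of ATP5PO (-0.27, adjusted p = 0.173) and ATP5MC2 (-0.11, 0.754) were lost. With arrays centred on the median gene the cyclosporin A count was 4 positive and 12 negative.

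Set against the mix alone, members were lower with each drug and the mix. Beside atazanavir 23 were lower and none higher (1 higher at an unadjusted p under 0.05), against 13.3% and 15.1% of all genes. Beside cyclosporin A 29 were lower and 2 higher (25.5% and 25.7%), and beside nefazodone 27 were lower and 3 higher (24.8% and 24.8%). The largest were again those with cyclosporin A: ATP5F1B at -1.52 (2.87-fold lower, SE 0.09), ATP5MC3 at -1.46, SDHA at -1.40, ATP5F1D at -1.17 and ATP5F1A at -0.91. With nefazodone ATP5MC3 was lower by 1.09, SDHA by 0.89, ATP5F1C, the gamma subunit that turns inside the catalytic head, by 0.85 and ATP5MC1 by 0.83, while ATP5MC2 was 0.41 higher. With atazanavir the leading falls were of UQCRC2 (0.60), SDHA (0.57), SDHD (0.53) and UQCR10 (0.50). Centring on the median gene moved these splits to 10 higher and 21 lower for cyclosporin A and to 6 and 19 for nefazodone.

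The drugs were also compared with each other at the one dose given of each, so that dose and drug cannot be told apart. Without the mix, atazanavir gave 17 members higher and 3 lower than cyclosporin A (19.8% and 20.3% of all genes), led by ATP5ME (0.57 higher) and COX6A2 (0.83 lower). It gave 11 higher and 12 lower than nefazodone (19.7% and 20.1%; 6 and 15 after centring), led by ATP5MC1 (0.72 higher) and COX7A2L (0.68 lower). Cyclosporin A gave 3 higher and 15 lower than nefazodone (17.6% and 19.4%), led by SDHC (0.47 higher) and UQCRC1 (0.72 lower). The first count was 12 members without the first atazanavir array and 13 without the first or second cyclosporin A array. In fits of only the 2 groups compared, 9, 14 and 8 members were called, with 7, 6 and 1 of them higher.

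With the mix, atazanavir gave 20 members higher and 6 lower than cyclosporin A (23.9% and 23.6% of all genes). ATP5MC3 and ATP5F1B were 1.05 and 1.03 higher, and COX7A2L was 0.84 lower. It gave 18 higher and 5 lower than nefazodone (21.2% and 22.4%), with ATP5MC1 0.90 higher and COX7A2L 0.86 lower. Cyclosporin A gave 7 higher and 12 lower than nefazodone (18.5% and 22.4%), with SDHC 0.62 higher and ATP5F1B 1.02 lower. The first 2 splits turned after centring on the median gene, to 10 higher and 20 lower and to 8 and 15, so their direction for the group as a whole depends on the scale; centring moved the median of all genes from -0.02 to -0.24 in the first. For ATP5MC3 and ATP5F1B, the direction held after centring and after quantile normalization.

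Marker genes of the HepaRG cells moved with the treatments as well. The summed log2 level of hepatocyte markers was 15.99 to 16.15 in control and 15.68 to 15.85 with the mix. It was 14.62 to 14.96 with atazanavir and 15.28 to 15.46 with the mix added, 15.06 to 15.46 with cyclosporin A and 13.80 to 14.28 with the mix added, and 14.96 to 15.23 with nefazodone and 14.99 to 15.17 with the mix added. On adding the mix it was thus higher beside atazanavir, lower beside cyclosporin A and overlapping beside nefazodone. Biliary markers (7 of 8 measured) went from 11.48 to 11.60 with atazanavir to 12.27 to 12.42 with the mix added, from 11.07 to 11.13 to 10.18 to 10.25 for cyclosporin A, and from 12.02 to 12.32 to 11.33 to 11.49 for nefazodone. A summed level is set mostly by the most abundant genes of its list. Counts of single marker genes on adding the mix stand beside 8.95%, 18.4% and 7.55% of all genes higher and 10.3%, 18.4% and 7.92% lower. Of the 7 biliary genes 5, 1 and 2 were called higher and 0, 3 and 1 lower. Their median changes were 0.71, -0.09 and 0.02. Stellate and fibroblast markers (8 measured) went from 9.74 to 10.16 down to 9.34 to 9.43 on adding the mix to cyclosporin A and from 9.95 to 10.23 down to 9.71 to 9.92 for nefazodone, and overlapped for atazanavir (10.69 to 11.36 and 10.92 to 11.24). Of these 8 genes 0, 3 and 1 were called lower and 0 higher (median changes 0.14, -0.24 and -0.04). Endothelial markers (6 measured) went from 8.06 to 8.30 down to 7.79 to 7.88 for atazanavir and from 7.37 to 8.09 down to 6.92 to 7.12 for cyclosporin A, and overlapped for nefazodone (6.76 to 6.96 and 6.76 to 6.85). Of these 6 genes 4 were dim, and 0, 1 and 0 were called lower and 0 higher. Their median changes were 0.04, -0.10 and -0.11. Macrophage markers (6 measured) lay between 6.74 and 7.52 in all groups. The difference between 3′ and 5′ GAPDH control probe sets, a sign of RNA quality, averaged between 0.485 and 0.656 in the 8 groups. The part of the cell mixture or of RNA quality in the changes of the members was not tested, and in bulk RNA fewer cells of a type and less RNA per cell cannot be told apart.

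Complex I, which was not among the members, moved likewise when the mix was added. Of its 33 measured nuclear subunits, 23 fell beside atazanavir, 18 beside cyclosporin A and 26 beside nefazodone, and 0, 2 and 0 rose. Of all genes, 10.3%, 18.4% and 7.92% fell in these comparisons and 8.95%, 18.4% and 7.55% rose. NDUFS7, a subunit with an iron-sulfur cluster, fell by 0.67 and 0.86 beside atazanavir and nefazodone, NDUFB10 by 0.82 beside nefazodone, and NDUFA3 by 0.59 beside cyclosporin A. Median changes of the list were -0.35, -0.21 and -0.40. Of 41 assembly factors of complexes II to V, 17, 16 and 16 fell and 1, 8 and 1 rose. The share of the 8 that rose beside cyclosporin A lay near that of all genes. LYRM7, a chaperone of the Rieske protein of complex III, fell by 1.01 beside atazanavir and 0.77 beside nefazodone. COX18 fell by 0.90 beside cyclosporin A, and COA6, a copper chaperone of complex IV, rose by 0.88 there.

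Carriers, ubiquinone synthesis and cytochrome c followed in part. Of 21 measured genes of this list, 14, 10 and 9 fell on adding the mix and 0, 1 and 1 rose. The shares of all genes were 10.3%, 18.4% and 7.92% lower and 8.95%, 18.4% and 7.55% higher. COQ3, a methyltransferase of ubiquinone synthesis, fell by 0.96, 1.72 and 1.39, PDSS1, which starts the ubiquinone tail, by 0.77 and 1.53 beside atazanavir and cyclosporin A, and the ADP/ATP carrier SLC25A4 by 0.81 beside atazanavir. CYCS, cytochrome c, rose with atazanavir (0.43) and nefazodone (0.62) and fell by 0.38, 0.47 and 0.29 when the mix was added. ATP5IF1, the inhibitor of complex V, fell with cyclosporin A (by 0.80) and nefazodone (by 1.20). Of 17 citric acid cycle genes, 7, 8 and 13 fell and 1, 1 and 0 rose, with citrate synthase CS falling by 0.73 beside atazanavir and 0.98 beside nefazodone. IDH2 fell by 2.46 beside cyclosporin A.

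Regulators of mitochondrial genes differed from one another. PPARGC1A, the coactivator PGC-1 alpha, was at 6.92, 6.73 and 6.80 in control and at 6.90, 7.31 and 7.17 with the mix, which was not called. It rose with each drug alone, by 0.70 (atazanavir), 0.40 (cyclosporin A) and 1.13 (nefazodone), and fell when the mix was added, by 1.42, 2.04 and 0.97 (adjusted p at most 3.44e-05). Its arrays with cyclosporin A and the mix, at 5.21, 5.13 and 5.18, were the lowest of all. ESRRA, an orphan receptor that works with PGC-1 alpha, also rose with each drug, by 0.49, 0.55 and 1.46, and fell on adding the mix, by 0.53, 0.69 and 0.63. NRF1 rose with atazanavir by 0.50 and fell by 0.41 when the mix was added, but rose by 0.62 on adding it to cyclosporin A, and TFAM, which packs mitochondrial DNA, fell by 0.70 with cyclosporin A and 0.65 with nefazodone alone. Of the 19 regulators 7, 5 and 4 fell and 0, 4 and 0 rose on adding the mix. Of all genes 10.3%, 18.4% and 7.92% fell and 8.95%, 18.4% and 7.55% rose. Beside cyclosporin A the regulators thus lay near the shares of all genes.

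Of 22 measured genes of mitochondrial import, proteases and shape, 17 were higher and 1 lower with atazanavir alone, 11 and 1 with cyclosporin A, and 16 and 2 with nefazodone, where 22.2%, 22.2% and 25% of all genes were higher. With nefazodone the protease LONP1 rose by 1.67 and the chaperone HSPA9 by 1.49. On adding the mix 14, 5 and 10 were lower and 1, 4 and 0 higher. The shares of all genes, for this list and the next, were 10.3%, 18.4% and 7.92% lower and 8.95%, 18.4% and 7.55% higher. The counts of import genes beside cyclosporin A lay near these shares. Of the 14 genes of hypoxia and uncoupling, 0, 4 and 3 were lower and 1, 4 and 0 higher on adding the mix, and HIF1A rose by 0.43 beside cyclosporin A. Where a list had 0 genes called in a direction by limma on adding the mix, it had between 0 and 3 at an unadjusted p under 0.05.

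In mouse liver, bile duct ligation was followed by a small fall of most members. 27 of the 47 were lower after ligation and 1 was higher, where 21.1% of all genes were lower and 20.5% higher (17.2% and 29.7% among genes with a mean over 8). The median change was -0.20 over the members and -0.05 over all genes, and 45 members had a negative change (all but Cox7a2l and Atp5g2). The median deviation of the 40 bright members from the sham mean lay between -0.24 and -0.12 in the 6 ligated livers and between -0.04 and 0.04 in the 6 sham livers. With arrays centred on the median gene, which moved the median of all genes to -0.17, 43 members were lower (23 with quantile normalization), so the number that passed depends on the scale.

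**Figure D5:**
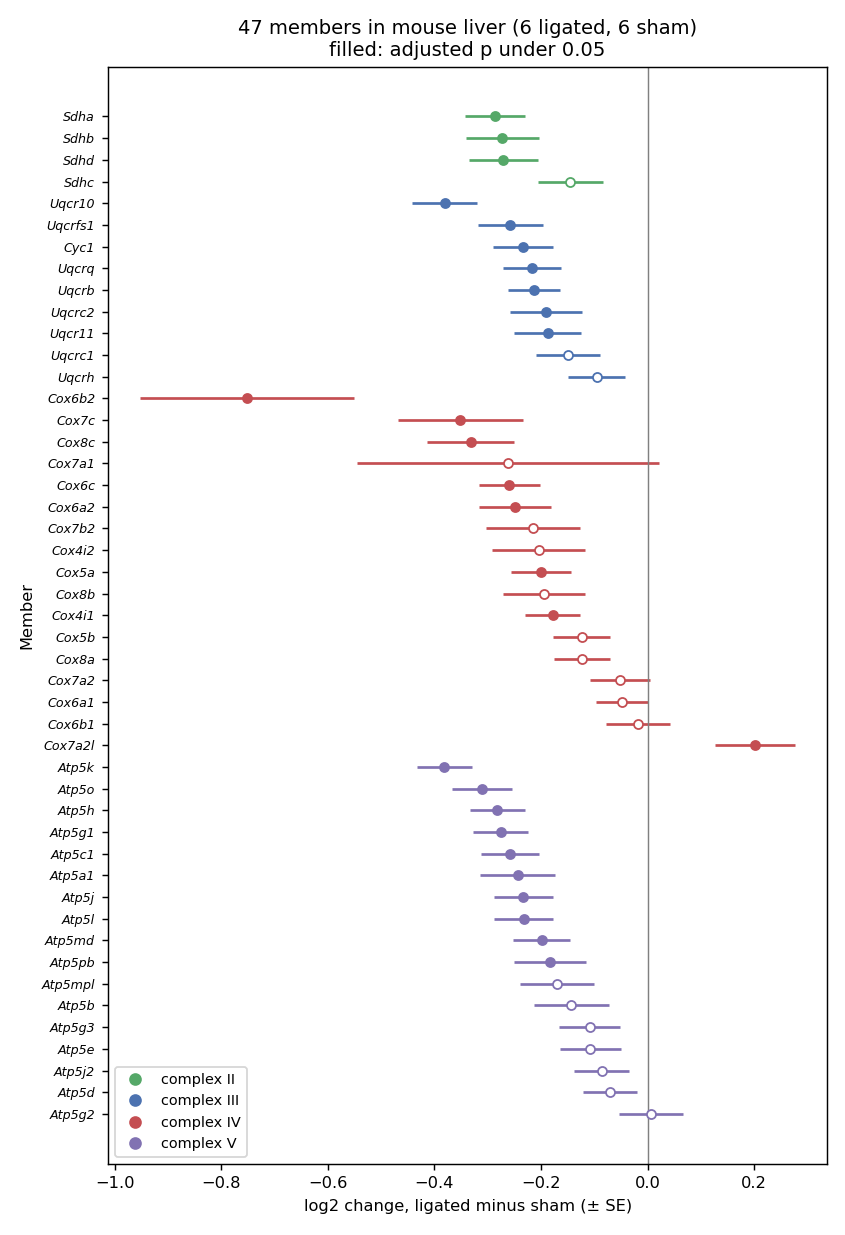
Log2 change (ligated minus sham, points, with SE as bars) of the 47 mouse members in 6 ligated and 6 sham livers, ordered by complex and size, with filled points for an adjusted p under 0.05. Only Cox7a2l, at 0.20, is filled to the right of 0.

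By complex, 3 of 4 members of complex II, 7 of 9 of complex III, 7 of 17 of complex IV and 10 of 17 of complex V were lower. Sdhb, the iron-sulfur subunit of complex II, was at 11.72 to 12.02 (median 11.85) after ligation and at 12.03 to 12.27 (median 12.12) in sham, a fall of 0.27 (SE 0.07, adjusted p = 0.00645). Sdha fell by 0.29 and Sdhd by 0.27. In complex III, Uqcr10 fell by 0.38 (SE 0.06, adjusted p = 0.000285), from 11.52 to 11.73 (median 11.55) in sham to 11.15 to 11.36 (median 11.19), and its 2 other probe sets changed by -0.69 and -0.53. The range of ligated livers lay wholly below that of sham livers for Sdhb and Uqcr10. Uqcrc2 fell by 0.19 with overlapping groups (adjusted p = 0.0356), a call lost on leaving out any of 7 single livers, or on leaving out the first ligated and the second sham liver together (0.0708).

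In complex V, Atp5k, a small membrane subunit, had the smallest adjusted p of the members. It was at 11.77 to 11.91 (median 11.84) after ligation and at 12.18 to 12.27 (median 12.23) in sham, a fall of 0.38 (SE 0.05, adjusted p = 6.98e-05), and its 2 other probe sets changed by -0.38 and -0.30. Atp5o, the mouse name of the stalk subunit OSCP, fell by 0.31 (SE 0.06, adjusted p = 0.000809). Of the c-ring genes, Atp5g1 fell by 0.28, from 11.75 to 11.86 down to 11.47 to 11.61, while Atp5g2 (0.01) and Atp5g3 (-0.11) were not called. The catalytic beta subunit Atp5b, at 12.66 to 12.90 after ligation and 12.78 to 13.06 in sham, changed by -0.14 and was not called (adjusted p = 0.117; 0.0154 after centring).

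In complex IV the widely expressed Cox5a fell by 0.20, Cox6c by 0.26 and Cox4i1 by 0.18, while Cox6a1 (-0.05), Cox6b1 (-0.02) and Cox7a2 (-0.05) were not called. Among the tissue isoforms, Cox6b2 had the largest change of any member, -0.75 (1.68-fold, SE 0.20, adjusted p = 0.00916), at 6.60 to 7.27 after ligation and 6.86 to 8.40 in sham with overlapping groups. Cox8c fell by 0.33 and Cox6a2 by 0.25, and Cox4i2, Cox7a1, Cox7b2 and Cox8b were not called. Cox7c was called at -0.35 (adjusted p = 0.0284), but both of its probe sets are dim here (5.12 and 3.41 in sham), and the call was lost after quantile normalization (-0.25, adjusted p = 0.163), with the mean over probe sets (0.102) and on leaving out any of 5 single livers. Cox7a2l, at 10.59 to 10.85 after ligation and 10.37 to 10.70 in sham, was the one member that was higher, by 0.20 (SE 0.07, adjusted p = 0.0434). This call was lost after centring (0.08, adjusted p = 0.366), after quantile normalization (adjusted p = 0.0794), and when most single livers were left out; its 2 other probe sets were higher by 0.22 and 0.19.

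Other cell types moved with ligation. The summed level of macrophage markers (7 measured) was 12.91 to 13.87 after ligation and 11.35 to 11.88 in sham, that of stellate and fibroblast markers 12.61 to 13.22 against 11.59 to 12.16, and that of neutrophil markers 8.75 to 11.80 against 7.79 to 8.35, each without overlap. Of the 4 neutrophil genes measured, 1 was called higher and 1 lower. Their summed level had a median of 8.98 after ligation and 8.27 in sham. The summed levels of erythroid markers (8.81 to 10.02 against 10.17 to 10.40) and pancreas markers (8.27 to 8.62 against 9.75 to 10.65) were lower after ligation. Of the 3 erythroid genes measured, 2 were dim, and 2 were called lower and 0 higher (median change -0.29). Of the 3 pancreas genes measured, 1 was called lower and 0 higher (median change -0.22). Biliary markers overlapped (8.76 to 10.70, median 9.24, against 8.22 to 10.56, median 8.43), and the highest sham value was that of the second sham liver. Of the 6 biliary genes measured, 1 was called higher and 0 lower (median change 0.54). Hepatocyte markers were at 17.34 to 17.39 against 17.36 to 17.40. Endothelial markers overlapped (10.45 to 10.96 against 10.82 to 11.13), and of the 6 genes measured 2 were called higher and 3 lower. T and B cell markers overlapped too (7.54 to 8.33 against 7.72 to 7.95). Of the 5 measured 4 were dim, and 2 were called lower and 0 higher. The first ligated liver had the highest biliary, neutrophil and macrophage markers of its group and the second sham liver the highest intestinal markers (13.18, where the sham median was 9.96). Without these 2 livers 26 members were lower. The part of the cell mixture in the change of the members was not tested.

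In ligated liver complex I resembled the members, while the shares of assembly factors and import genes that were lower lay near that of all genes (21.1% lower and 20.5% higher). Of 34 measured complex I subunits 22 were lower and 0 higher by limma (0 higher also at an unadjusted p under 0.05; median change -0.27), led by Ndufa12 (-0.60) and Ndufs7 (-0.59). Cytochrome c, Cycs, fell by 0.36. Of 37 assembly factors 9 were lower and 4 higher, with Higd1a, a factor of complexes III and IV, at -0.59 and the copper chaperone Cox19 at 0.82. Of 19 genes of carriers, channels and cytochrome c, 6 were lower and 2 higher, and the muscle-type ADP/ATP carrier Slc25a4 rose by 1.48. Of 18 regulators 5 were lower and 0 higher (1 higher at an unadjusted p under 0.05). Nrf1 fell by 0.28, while Ppargc1a (0.26), Esrra (-0.04) and Tfam (-0.06) were not called. Of 16 citric acid cycle genes 8 were lower and 2 higher, and of 20 genes of import and mitochondrial shape 4 were lower and 4 higher.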

How the data were processed

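RNA of 12 mouse livers and 24 HepaRG cultures was hybridised to Affymetrix 3′ arrays. The authors deposited log2 values per probe set, made with RMA per the submitters' processing notes; its version and which arrays were normalized together are not given in the sources used here. Probe sets with 1 gene symbol were kept, 1 per gene (highest mean), with no filter on dim genes. Each species had 1 limma fit of group means (limma 3.58.1, R 4.3.3; residual degrees of freedom 10 and 16), with Benjamini-Hochberg adjustment over all genes; the fit was tested on simulated data. Members and lists were chosen with earlier results of these data known. Every member could be named. For each comparison the members with the largest called changes were named (up to 6 a direction, or the 3 largest changes where fewer than 3 passed), with the isoform pairs and SDHB, UQCRC2, COX5A and ATP5F1B, at most 2 genes per other list and 7 regulators and carriers fixed by name. Same-numbered arrays deviated together (every pair's correlation over 0.1) for the mix against control, nefazodone against control, nefazodone with the mix against nefazodone, and cyclosporin A with the mix against the mix. There a fit with the number as a block gave 0, 17, 31 and 31 members called. Alternatives were other scalings, the mean over probe sets, the block, fits of only the groups compared and each array left out.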

Additional observations from a re-analysis of the deposited data

Results flagged for a closer look

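Among the 94 groups of 6 mouse arrays tested for a lone array (47 members in 2 groups; chance gives about 1 in 20), 5 had 1 array far from the rest. These were the sham liver 5 for Atp5d (12.82) and Cox4i1 (13.23), the sham liver 3 for Atp5pb (12.97), the ligated liver 4 for Atp5h (12.28) and the ligated liver 6 for Uqcrfs1 (11.68), all log2 levels.

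The effect of the bile acid mix differed with and without a drug, by the interaction in limma, for the following members. With atazanavir the interaction was -0.79 for CYC1, -0.74 for UQCR10, -0.66 for ATP5PO, -0.57 for ATP5MC2, -0.54 for ATP5F1B and -0.52 for COX7B, and 0.72 for COX6A2. With cyclosporin A it was -1.29 for ATP5F1B, -1.11 for ATP5MC3, -0.96 for SDHA, -0.86 for ATP5F1D, -0.85 for ATP5MC1 and -0.75 for CYC1, and 0.42 for COX7A2L and 0.39 for COX4I2. With nefazodone it was -0.92 for ATP5F1B, -0.87 for ATP5MC3 and CYC1, -0.83 for ATP5PO, and -0.72 for COX5B and ATP5F1D. The 3 interactions share the control and mix arrays. The COX4I2 call was lost in 10 alternatives (adjusted p = 0.109 without the third mix array). With the mean over probe sets the atazanavir calls of ATP5PO (-0.27, adjusted p = 0.173) and ATP5MC2 (-0.11, adjusted p = 0.754) were lost, and that of ATP5MC2 also without the third control, second mix or second atazanavir array (0.0508 to 0.0599).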

How the results depend on the processing

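Centring arrays on the median gene moved the count of called members from 28 to 43 in ligated liver and from 25 to 16 in the cyclosporin A interaction, and quantile normalization moved it from 0 to 1 for the mix alone. With only the groups compared in the fit, 6 members were called for cyclosporin A against control, 9 for atazanavir against cyclosporin A, 14 for atazanavir against nefazodone and 8 for cyclosporin A against nefazodone. Leaving out 1 array at a time gave 8 to 15 members for atazanavir against control and 12 to 22 for atazanavir against cyclosporin A, and 23 to 30 in ligated liver, 22 to 27, 28 to 34 and 25 to 32 for the mix added to atazanavir, cyclosporin A and nefazodone. The sign of uncalled changes turned 4 times: UQCRC2 with the mean over its probe sets, for atazanavir (0.003) and cyclosporin A (0.058) against control, and, for cyclosporin A against control, UQCRC2 (-0.162 to 0.036) and COX5A (-0.112 to 0.003) over the arrays left out. No member that was called both in the reported fit and under an alternative changed sign. Of 2632 values of named members under an alternative, 132 lost and 7 gained a call; the cause was not tested.

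Mouse livers with the same number did not deviate together (correlations -0.219 to 0.092), and with the number as a block 21 members were lower, without calls for Cox7a2l, Cox7c and Uqcrc2. Where the HepaRG numbers paired the arrays, the block changed no other call of a named member beside that of UQCR10.

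With 3 arrays a group, precision was limited by their number, and COX8C, COX7B2, COX7A1, COX6B2 and ATP5MF were dim. The labels did not tie the replicate numbers to cell batches, so no batch entered a fit.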
